A study of Mus musculus with 6 samples.

Results

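The genes described here encode the chains of collagen VI (*Col6a1*, *Col6a2* and *Col6a3*), the chains of collagen VIII (*Col8a1* and *Col8a2*) and the collagens XII, XIV and XVI (*Col12a1*, *Col14a1* and *Col16a1*), which belong to the fibril-associated collagens with interrupted triple helices (FACITs). They were picked by gene symbol, by a rule that uses no measured value, and make up 8 of the 19446 genes in the table of cultured cardiac fibroblasts (CFs). All 8 passed the filter of 10 or more reads in 2 or more libraries, *Col8a2* only through CharmeKO 2 and 3, where it was high.

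None of these collagens builds the banded fibrils of the heart. The α1, α2 and α3 chains of collagen VI join into a heterotrimer that is assembled into beaded microfilaments around cells, in close contact with basement membranes and with receptors at the cell surface. Collagen VIII is a short-chain collagen that forms open networks and is known from vessel walls, from the layer under the corneal endothelium and from remodelling myocardium. FACITs lie on the surface of collagen I fibrils and link them to other matrix components, and collagens XII and XIV are known to affect how fibrils pack in tissues under mechanical load.

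CFs had been grown from mice aged 5 weeks, of C57BL/6J background, in 2 groups of 3 libraries each. The first group was wild type (WT), and the second was CharmeKO, in which a polyadenylation signal inserted into the locus stops transcription of the long non-coding RNA *Charme*. No treatment is named for either group. Both were explant cultures of atrial tissue pooled from littermates, grown in serum-rich medium on fibronectin and used at early passage, so the values describe cells adapted to plastic rather than cells of the intact ventricle. Native CFs of the same study were not analysed here. Each library held 38330019 to 46797446 reads assigned to genes, and all values below are normalised read counts, that is, reads divided by a size factor for each library.

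The only table entry taken as the *Charme* transcript, an inference from its non-standard identifier CUFF405, was counted 5, 15 and 11 times in WT 1, 2 and 3, against 0, 6 and 3 times in CharmeKO 1, 2 and 3. These counts are too low for a firm check of the labels. The CF label was checked against markers, and the summed level of 8 fibroblast genes lay between 436912 and 824214 normalised reads in every library. Most of that sum was *Col1a2* and *Vim*, so it says little of the others. Among those, *Pdgfra* had 4110 to 10084, *Tcf21* 199 to 1764, *Thy1* 2658 to 29470 and *Lum* 633 to 11491. Endothelial markers summed to 27.8 to 232, with *Pecam1* at 1.74 to 6.41. Cardiomyocyte markers summed to 148 to 799, of which *Tnnt2* had 57.1 to 757 and *Tnni3* 12.8 to 97.3, while *Ttn* and *Ryr2* stayed at or below 8.79. Smooth muscle and pericyte markers differed widely, with 25013 to 181552 summed normalised reads in WT and 8995 to 93490 in CharmeKO. Most of that sum was *Acta2* in every library. The fitted value of each of these 10 genes was lower in CharmeKO, that of *Notch3* by only -0.0047 log2 units, although 0 of them passed the limma test. In pairs of equal replicate number, 7 of the 10 were lower in all 3 pairs, as were 14.0% of tested genes. *Notch3*, *Rgs5* and *Cnn1* were not. DESeq2 blocked on the replicate number called 1 of these 10, *Myh11*, and 1 of the 8 fibroblast genes, *Dpt*, against 0.401% of all tested genes. In bulk RNA, fewer cells of a type and less RNA per cell cannot be told apart.

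*Col6a1* and *Col6a2* lie on the same strand of chromosome 10, 85.2 kb apart, whereas *Col6a3* lies on chromosome 1. In GRCm38, *Col6a1* (ENSMUSG00000001119) spans chr10:76708792-76726168, *Col6a2* (ENSMUSG00000020241) chr10:76595762-76623630 and *Col6a3* (ENSMUSG00000048126) chr1:90765923-90843971, all on the minus strand. Since the levels of the first pair rose and fell together across the libraries and that of the third chain did not follow them, the bases just upstream of the annotated transcripts are shown for all 3, from RefSeq on GRCm38.p6, 5′ to 3′, with capitals marking the GC box GGGCGG on either strand.
Col6a1, chr10:76726169-76726294, minus strand: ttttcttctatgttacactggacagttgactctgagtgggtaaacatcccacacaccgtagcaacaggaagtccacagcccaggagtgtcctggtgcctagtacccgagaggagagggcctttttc
Col6a2, chr10:76623631-76623880, minus strand: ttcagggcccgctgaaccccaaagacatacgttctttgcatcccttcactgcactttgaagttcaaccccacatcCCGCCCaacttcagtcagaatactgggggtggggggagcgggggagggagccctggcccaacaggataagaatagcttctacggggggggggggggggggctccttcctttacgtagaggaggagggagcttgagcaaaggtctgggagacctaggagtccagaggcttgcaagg
Col6a3, chr1:90843972-90844221, minus strand: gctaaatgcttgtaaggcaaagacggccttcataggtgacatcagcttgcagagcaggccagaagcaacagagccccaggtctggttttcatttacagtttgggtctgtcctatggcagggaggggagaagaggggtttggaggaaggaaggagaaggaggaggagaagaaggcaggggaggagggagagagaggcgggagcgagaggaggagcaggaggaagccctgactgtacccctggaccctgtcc

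RefSeq windows of 300 bases, from 250 before to 50 after the start of the transcript, were found for 6 of the 8 genes, with *Col12a1* and *Col14a1* not matched. They were searched on both strands for the AP-1 motif TGANTCA, the GC box GGGCGG, the TATA box spelled TATAAA, the box named CCAAT, the TEAD motif ACATTCC, the SMAD palindrome spelled GTCTAGAC and the shorter SMAD motif CAGAC, and none of these motifs contains another. The *Col6a1* window held 1 AP-1 motif, 90 to 84 bases before the RefSeq start, in a stretch that GENCODE already counts as transcribed and that is therefore not printed above. AP-1 motifs were present in 7.81% of 32817 RefSeq windows. The *Col6a2* window printed above held 1 GC box, a second RefSeq window of this gene held 3, and 35.6% of all windows held at least 1. *Col6a3* held no motif but CAGAC, which it held 2 times, *Col6a2* and *Col8a1* 1 time each, and 49.6% of all windows at least 1 time. *Col8a1* and *Col8a2* held 4 GC boxes each, in part overlapping in *Col8a2* but not in *Col8a1*, and *Col16a1* held 2 GC boxes and 1 CCAAT. The TATA box (13.6% of all windows), the TEAD motif (3.85%) and the SMAD palindrome (0.213%) were in none of the windows of these 6 genes. No motif of this search was found in the windows of all 3 collagen VI genes.

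**Figure D1:**
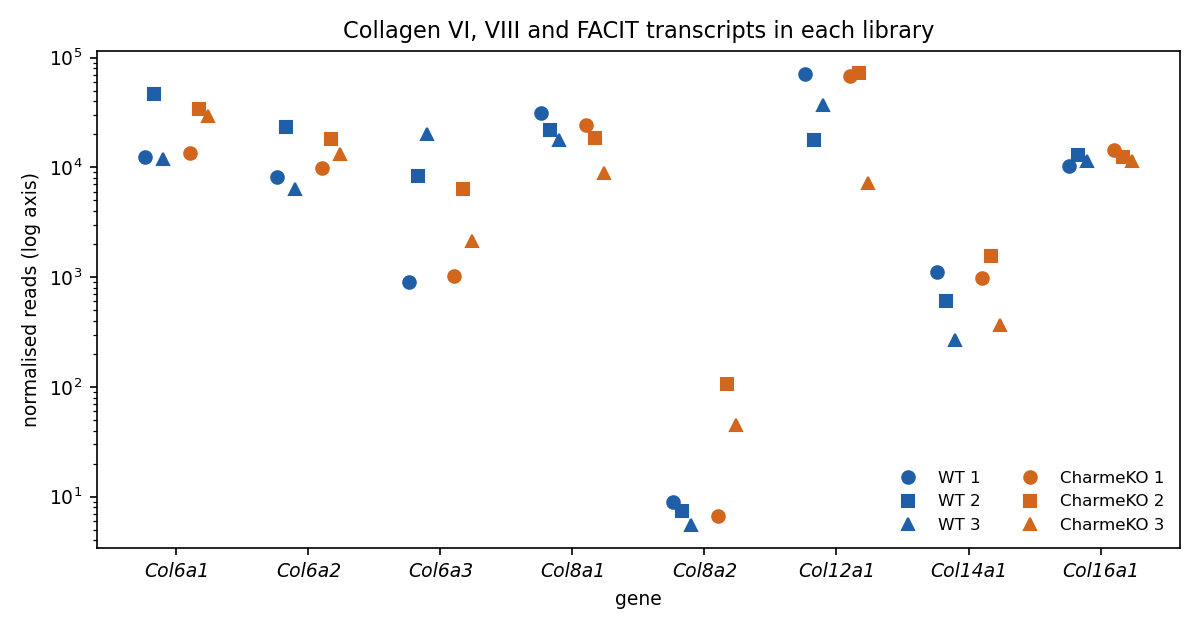
Normalised reads (log axis) of the 8 genes (horizontal axis) in each of the 6 libraries, with blue symbols for WT, orange symbols for CharmeKO and one symbol shape per replicate number. The groups overlap for every gene, *Col16a1* is nearly level, and *Col8a2* lies below 10 in 4 libraries.

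The first question was whether CFs without *Charme* carry different amounts of these transcripts. No gene of the 8 was called different between the genotypes. In limma over all 15948 tested genes, 0 of 8 passed an adjusted p of 0.05, against 0% of all genes, and the adjusted p was 0.9999 for each. None of the 8 had an unadjusted p under 0.05, against 0.897% of all tested genes. That share lies below the threshold itself, so this fit, which leaves out the replicate number, rarely calls any gene. Its lack of calls therefore does not show equal levels. DESeq2 on the recovered reads called 8 genes in all (0.0502%), DESeq2 blocked on the replicate number called 64 (0.401%) and edgeR called 0 (0%), in each case without any of these 8. The WT and CharmeKO values overlapped for all 8 genes, against 4.11% of tested genes whose groups did not overlap. Fitted changes of 1 log2 unit or more, in either direction, were found for 2 of the 8 genes, *Col6a3* and *Col8a2*, against 5.04% of tested genes. Both are described below, also with single libraries left out. *Col8a2* was tested only because of the libraries where it was high, so its place in this count was favoured by the filter. Only 1 of the 8, *Col8a1*, had the same direction in all 3 same-numbered pairs, against 30.4% of tested genes. Fitted log2 fold changes (CharmeKO relative to WT, on the log2(value + 1) scale) were positive for 5 genes and negative for 3, with a median of 0.23 beside 0.0022 over all tested genes.

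Among the collagen VI chains, *Col6a1* had the most reads in every library but WT 3, where *Col6a3* had more. It stood at 12299, 46637 and 12021 normalised reads in WT 1, 2 and 3, and at 13473, 34215 and 29189 in CharmeKO 1, 2 and 3. WT 2 was the highest library, and CharmeKO 1 was as low as WT 1 and WT 3. The log2 fold change was 0.32 (SE 0.623, 95% interval -1.17 to 1.82), and it was -0.01 without WT 3.

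*Col6a2* encodes the partner chain of similar structure. It had 8115, 23450 and 6397 normalised reads in WT and 9774, 18027 and 13356 in CharmeKO, so its libraries fell in the order of *Col6a1*. Its log2 fold change was 0.32 (SE 0.514, 95% interval -0.91 to 1.55), and it was -0.05 without WT 3. Neither interval excludes an increase of 1 log2 unit.

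*Col6a3* encodes the long chain, whose C-terminal end is cleaved to release the peptide endotrophin. It did not follow *Col6a1* and *Col6a2*, with 909, 8262 and 19987 normalised reads in WT and 1026, 6369 and 2145 in CharmeKO. The WT group alone spanned a factor of 22.0, and WT 3 held the highest value of the series. The log2 fold change of -1.14 (SE 1.202, 95% interval -4.02 to 1.74) depended strongly on single libraries. It was -0.18 without WT 3 and -2.41 without WT 1. Within same-numbered pairs the log2 difference was 0.17 for number 1, -0.38 for number 2 and -3.22 for number 3. WT 3 also had the highest sum of smooth muscle and pericyte markers, 181552 against 100145 in WT 1 and 25013 in WT 2. Most of each sum was *Acta2* (155862, 96903 and 18192), which encodes the αSMA that the paper scored in CFs treated with TGF-β1. The sum therefore does not separate smooth muscle cells and pericytes from activated CFs. Its members also differed. Within WT, *Myh11*, *Acta2*, *Cnn1*, *Cspg4*, *Des* and *Mcam* were highest in WT 3. *Rgs5* (45.3, 997 and 51.6), *Notch3* (1513, 4166 and 1672), *Kcnj8* and *Abcc9* were highest in WT 2. The part of cells with these markers in the *Col6a3* value was not tested. WT 2, with more *Col6a3* than WT 1, had the lowest such sum in WT.

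The proportion between the chains could be followed within each library, where scaling plays no role. The log2 ratio of *Col6a1* to *Col6a2* was 0.60, 0.99 and 0.91 in WT and 0.46, 0.92 and 1.13 in CharmeKO. Its SD over the 6 libraries was 0.252, while the log2 levels of the 2 genes had SDs of 0.860 and 0.712, so the pair moved together over a range of 3.88-fold for *Col6a1* and 3.67-fold for *Col6a2*. Between genotypes the ratio differed by 0.0045 (exact permutation test, two-sided, p = 1). Per kb of the principal transcript, *Col6a1* stood at 1.33 to 2.11 times *Col6a2*. That proportion was 2.62 to 4.15 when length was taken from all annotated exons, which come to 8.33 kb for *Col6a2* against 3.95 kb in its principal transcript.

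The log2 ratio of *Col6a3* to *Col6a1* was -3.76, -2.50 and 0.73 in WT and -3.72, -2.43 and -3.77 in CharmeKO. The value is negative in every library but WT 3. The mean difference between genotypes was -1.46 (exact permutation test, two-sided, p = 0.6, adjusted over 4 ratios p = 0.8). It was -0.17 without WT 3 and -2.42 without WT 1. *Col6a3* made up 52.0% of the reads of the 3 chains in WT 3, against 4.23% to 10.9% in the other 5 libraries. Per kb, *Col6a3* reached 0.0335 to 0.757 times the level of *Col6a1*.

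**Figure D2:**
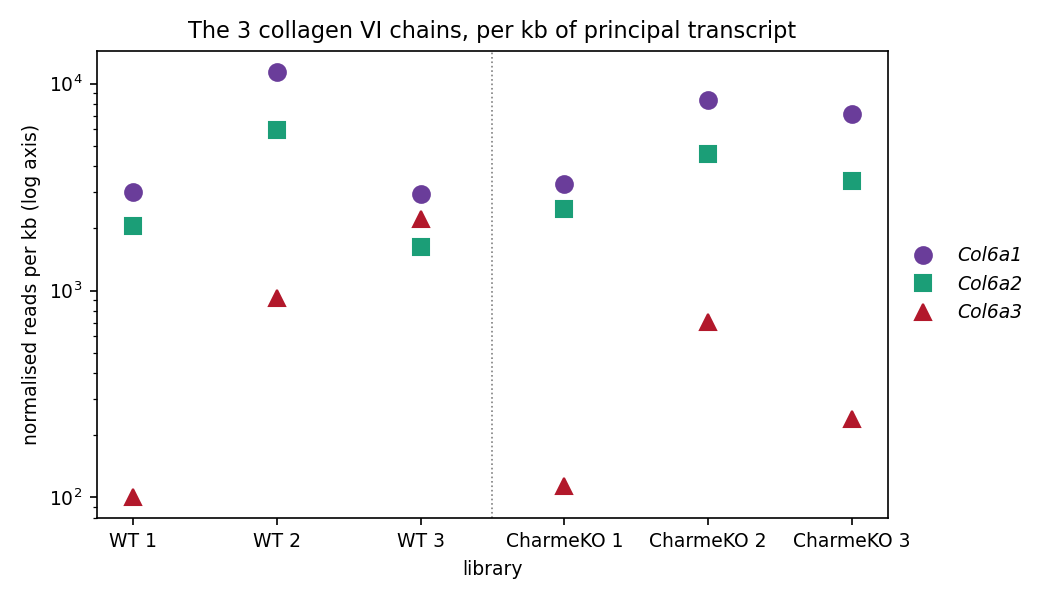
Normalised reads per kb of principal transcript (log axis) of *Col6a1*, *Col6a2* and *Col6a3* in each library (horizontal axis), with a dotted line between WT and CharmeKO. *Col6a1* lies above *Col6a2* in all 6 libraries, and *Col6a3* lies lowest except in WT 3, where it is above *Col6a2*.

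Collagen VIII was represented almost entirely by *Col8a1*, which encodes the α1 chain. This gene lies at chr16:57624258-57754737 on the minus strand (ENSMUSG00000068196, GRCm38). It had 30949, 21880 and 17561 normalised reads in WT and 24247, 18379 and 8863 in CharmeKO. CharmeKO 3 was the lowest library, and the values of CharmeKO 1 and 2 lay inside the WT range. *Col8a1* was lower in CharmeKO in each of the 3 same-numbered pairs, by -0.35, -0.25 and -0.99 log2 units, as were 14.0% of all tested genes. The log2 fold change was -0.53 (SE 0.419, 95% interval -1.53 to 0.47). It was -0.11 without CharmeKO 3 and -0.84 without CharmeKO 1. With the replicate number as a block its unadjusted p fell to 0.0389 in limma and to 0.0114 in DESeq2, where 5.59% of tested genes fell below 0.05, and the adjusted p stayed at 0.80 and 0.45.

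*Col8a2*, the α2 chain gene (ENSMUSG00000056174, chr4:126286793-126314330, plus strand), was close to the detection limit in most libraries. It was counted 9, 7 and 5 times in WT, against 7, 107 and 52 times in CharmeKO. CharmeKO 2 and 3 were thus above every other library, while CharmeKO 1 lay inside the WT range. Only CharmeKO 2 and 3 carried the gene past the read filter, so its fold change and p-values come from a gene selected by its high libraries. The log2 fold change of 2.04 (SE 0.987, 95% interval -0.32 to 4.41) had an unadjusted p of 0.0799 in limma. DESeq2 gave an unadjusted p of 0.00558 and an adjusted p of 0.9999, or an adjusted p of 0.67 with the block. It was 3.10 without CharmeKO 1 and 1.21 without CharmeKO 2. At such counts the WT level rests on a few reads per library, and 3 reads correspond to 0.0641 to 0.0783 CPM, that is, relative to all reads of a library. The log2 ratio of *Col8a1* to *Col8a2* was 11.5 to 11.8 in WT and in CharmeKO 1, and 7.45 and 7.61 in CharmeKO 2 and 3 (mean difference -2.68, exact permutation test, two-sided, p = 0.4, adjusted p = 0.8).

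*Col12a1* encodes collagen XII, the FACIT of dense connective tissue and of scars, and had the highest mean read count of the 8 genes. It lies at chr9:79598991-79718831 on the minus strand (ENSMUSG00000032332). Normalised reads were 70294, 17669 and 36601 in WT and 67933, 71795 and 7263 in CharmeKO. WT 1, CharmeKO 1 and CharmeKO 2 were nearly equal, and CharmeKO 3 was lower by a factor of 9.88 than CharmeKO 2. The log2 difference within pairs was -0.05 for number 1, 2.02 for number 2 and -2.33 for number 3, so the pairs numbered 2 and 3 moved in opposite directions by similar amounts. The log2 fold change was -0.12 (SE 0.981, 95% interval -2.47 to 2.23) in limma, 0.24 in edgeR and DESeq2 and 0.97 in limma without CharmeKO 3, and no direction can be given.

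The summed markers of some other cells were also low in CharmeKO 3. Its mesothelial and epicardial markers summed to 888 normalised reads, against 3641 to 14834 in the other CharmeKO libraries and 1618 to 13180 in WT. Of the 7 tested genes 0 passed the test. *Upk3b*, *Upk1b*, *Msln* and *Krt18* were lowest in CharmeKO 3. *Krt19* (157), *Wt1* (217) and *Lrrn4* (181) lay inside the range of the other libraries. The macrophage markers of CharmeKO 3 summed to 1013, against 12621 and 16899 in the other CharmeKO libraries and 1878 to 7854 in WT, and 0 of 7 genes passed the test. *Lyz2* gave most of that sum in every library but CharmeKO 3. It stood at 278 there, against 10470 and 12791 in CharmeKO 2 and 1. *Ptprc* was at 0 in CharmeKO 3, whereas *Csf1r* (330) and *Cd14* (300) lay inside the range of the other libraries. Their part in the *Col12a1* value was not tested.

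*Col14a1* encodes collagen XIV, the close relative of collagen XII that is known from differentiated, quiescent connective tissue. It lies at chr15:55307750-55520803 on the plus strand (ENSMUSG00000022371). With 1118, 606 and 267 normalised reads in WT and 986, 1548 and 368 in CharmeKO it was far less abundant than *Col12a1*. The libraries numbered 3 were the lowest of each group. Its log2 fold change was 0.54 (SE 0.687, 95% interval -1.10 to 2.19), and it was 0.0036 without WT 3. The log2 ratio of *Col12a1* to *Col14a1* was 5.97, 4.86 and 7.10 in WT and 6.11, 5.54 and 4.30 in CharmeKO, a difference of -0.66 (exact permutation test, two-sided, p = 0.5, adjusted p = 0.8).

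*Col16a1*, at chr4:130047840-130099283 on the plus strand (ENSMUSG00000040690), encodes collagen XVI, a minor FACIT that occurs near fibrillin microfibrils and at cell surfaces. It had 10309, 12980 and 11344 normalised reads in WT and 14261, 12441 and 11397 in CharmeKO. All 6 values lay within a factor of 1.38. The log2 fold change was 0.14 (SE 0.181, 95% interval -0.30 to 0.57), so that for this gene a change of 1 log2 unit in either direction lies outside the interval. It is the only gene of the 8 for which the interval is that narrow.

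**Figure D3:**
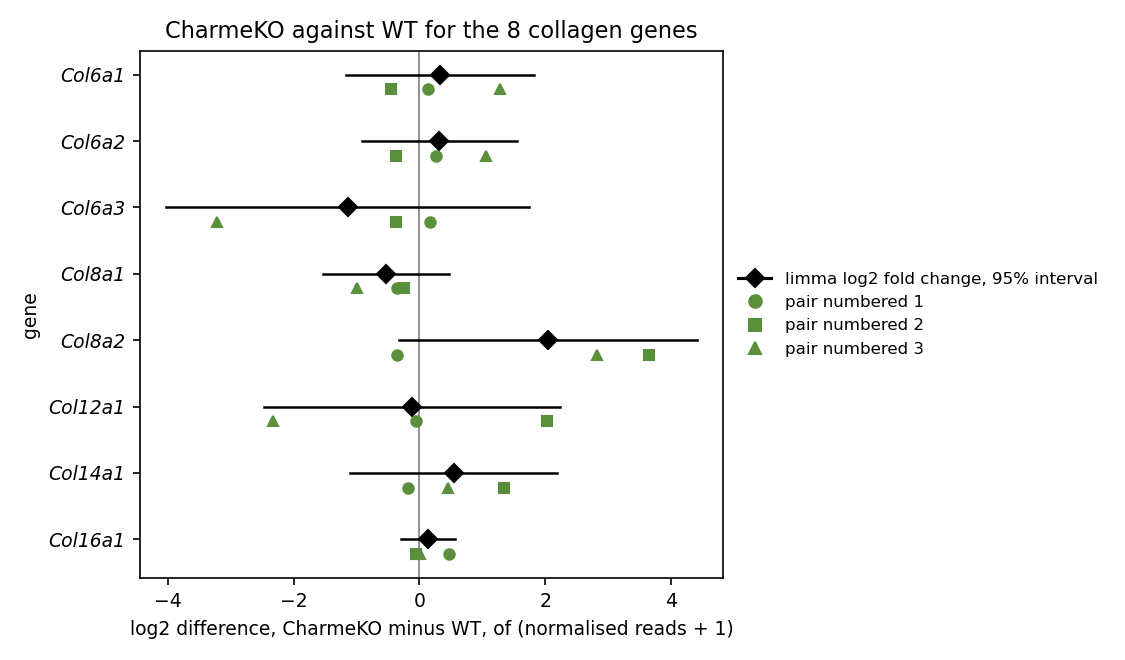
Log2 difference of CharmeKO minus WT, on the log2(normalised reads + 1) scale (horizontal axis), for each gene (vertical axis), with black diamonds for the limma estimate, black lines for its 95% interval and green symbols for the 3 same-numbered pairs. Every interval includes 0, the widest is that of *Col6a3* and the narrowest that of *Col16a1*, and the pairs of *Col12a1* lie on both sides of 0.

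The spread between libraries was itself large for most of these genes. Over the 6 libraries the log2 range (highest minus lowest) was 4.46 for *Col6a3*, 3.31 for *Col12a1*, 1.96 for *Col6a1*, 1.87 for *Col6a2* and 1.80 for *Col8a1*. Among the 6585 tested genes with a mean of at least 1000 normalised reads, whose median range was 0.71, these ranges stood at percentiles 99.0, 97.5, 92.0, 91.3 and 90.7. *Col16a1*, with a range of 0.47, stood at percentile 23.2. *Col8a2* and *Col14a1* had ranges of 4.03 and 2.53 and a mean below 1000.

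The replicate number accounted for more of this variance than the genotype did in 6 of the 8 genes. It has more levels than the genotype, so it takes a larger share on average even without any effect. Its share of the sum of squares was 78.6% for *Col14a1*, 74.9% for *Col6a1*, 73.5% for *Col6a2*, 69.2% for *Col8a1*, 67.1% for *Col6a3* and 47.7% for *Col12a1*, against 0.24% to 22.3% for genotype in these genes. For *Col8a2* genotype took 45.0% and number 22.9%, and for *Col16a1* they took 20.8% and 18.9%. Over all tested genes the medians were 73.8% for number and 5.91% for genotype, so a large share for number is not particular to the collagens.

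**Figure D4:**
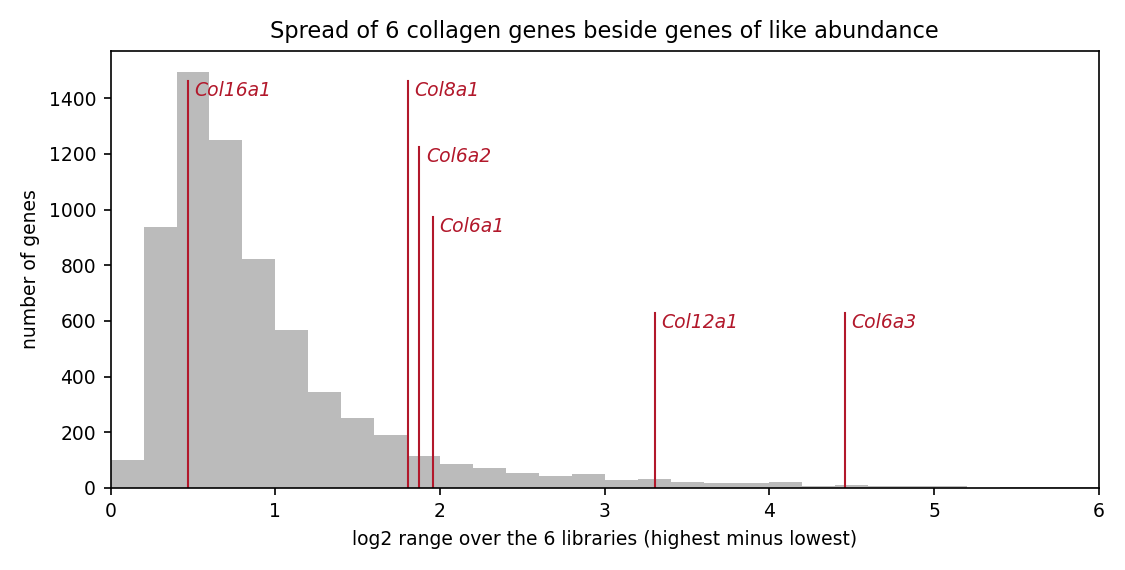
Histogram of the log2 range over the 6 libraries (horizontal axis, highest minus lowest) for the tested genes with a mean of at least 1000 normalised reads (vertical axis, number of genes; genes with a range above 6 are not drawn), with red lines for the 6 collagen genes of that abundance. *Col16a1* falls at 0.47 among the bulk of the genes, and *Col12a1* and *Col6a3* fall far to the right at 3.31 and 4.46.

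Levels of different genes were compared per kb of principal transcript. By the geometric mean over the 6 libraries the order was *Col6a1* (5189 normalised reads per kb), *Col8a1* (3719), *Col6a2* (3018), *Col12a1* (2974), *Col16a1* (2316), *Col6a3* (398), *Col14a1* (120) and *Col8a2* (3.48). The first 5 cannot be ranked against their neighbours, as each lay above the next in 2 to 4 of 6 libraries, down to *Col12a1* over *Col16a1*. *Col16a1* lay above *Col6a3* in 5 of 6 libraries, with WT 3 as the exception, and *Col6a3* above *Col14a1* in 4 of 6. *Col14a1* lay above *Col8a2* in all 6. The first place was taken by *Col12a1* in WT 1 and CharmeKO 1, by *Col6a1* in WT 2, CharmeKO 2 and CharmeKO 3, and by *Col8a1* in WT 3.

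Together the 8 genes received 0.315%, 0.321% and 0.246% of the reads in WT and 0.306%, 0.416% and 0.178% in CharmeKO. The mean share was 0.294% ± 0.0416 (SD, n = 3) in WT and 0.300% ± 0.119 (SD, n = 3) in CharmeKO, a difference far below the spread. Among the reads of 23 listed collagen chains they made up 11.3%, 5.49% and 6.62% in WT and 8.21%, 8.90% and 3.86% in CharmeKO. *Col12a1* gave 52.5% and 51.6% of the reads of the 8 genes in WT 1 and CharmeKO 1, but 13.4% in WT 2 and least in CharmeKO 3. A similar total was thus reached with a different mix of collagens, such as 0.315% in WT 1 with *Col12a1* in the lead and 0.321% in WT 2 with *Col6a1* in the lead at 0.114%.

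**Figure D5:**
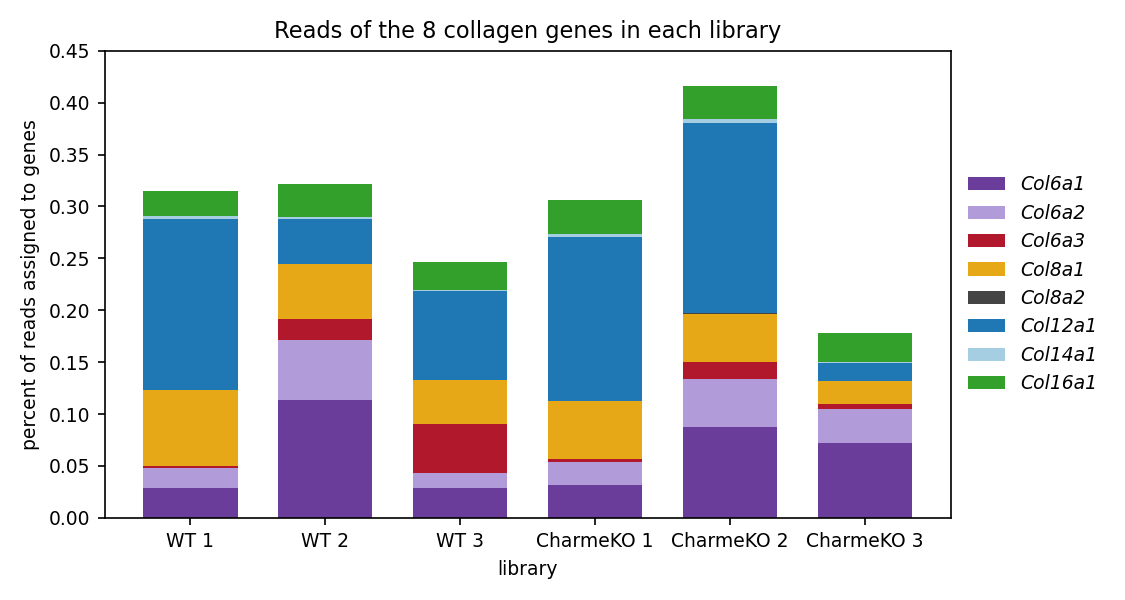
Stacked bars of the percent of reads assigned to genes (vertical axis, from 0) that each of the 8 genes took in each library (horizontal axis). WT 1 and WT 2 reach nearly the same height, 0.315% and 0.321%, with *Col12a1* largest in the first and *Col6a1* in the second, and CharmeKO 3 is lowest at 0.178%.

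Of 10 further chains of collagen VI and further FACITs 8 were in the table and 5 passed the filter. *Col20a1*, a FACIT named after its values had been seen, had the most reads of these, with 108, 975 and 366 normalised reads in WT and 110, 1250 and 762 in CharmeKO. None of the 5 passed the limma test (0 of 5) and none had an unadjusted p under 0.05. All 5 fitted values were positive, with a median of 0.81, and 3 of 5 were higher in CharmeKO in all 3 pairs, as were 16.4% of tested genes. The filter had a part in this. It left out *Col19a1*, named after its values had been seen, whose mean was 77.2 in WT and 5.16 in CharmeKO. That WT mean was set by WT 2, at 217 normalised reads. The filter also left out *Col9a2* (mean 3.15 in WT and 2.58 in CharmeKO) and *Col22a1* (0.657 and 3.91). Both had fewer than 10 reads in every library and were likewise named after their values had been seen. *Col6a4*, *Col6a5* and *Col6a6* encode chains that can take the place of the α3 chain. *Col6a6* had 1.97, 21.4 and 26.4 normalised reads in WT and 2.88, 313 and 58.3 in CharmeKO (log2 fold change 1.77, SE 1.70). *Col6a5* had 0.985, 137 and 7.69 in WT and 7.69, 33.4 and 558 in CharmeKO (log2 fold change 2.05, SE 2.01), and *Col6a4* stayed between 7.69 and 37.4. Each of the 3 had its lowest or nearly lowest values in the libraries numbered 1.

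Of 20 receptors and binding partners of these collagens 19 passed the filter, and 0 of 19 passed the limma test. Fitted values were positive for 9 and negative for 10, with a median of -0.10. An unadjusted p under 0.05 was found for 2 of the 19, against 0.897% of all tested genes. *Cspg4*, which encodes the NG2 proteoglycan that binds collagen VI and marks pericytes, had 450, 676 and 3663 normalised reads in WT and 241, 105 and 25.2 in CharmeKO (log2 fold change -3.56, SE 1.05, unadjusted p = 0.0127 in limma). WT 3 held the most *Cspg4* and the most *Col6a3*, and WT 2 came next for both. The other libraries did not follow. WT 1, with 450 of *Cspg4*, had the lowest *Col6a3* (909), and CharmeKO 2, with 105, had 6369. *Cspg4* is also a member of the smooth muscle and pericyte sum given above. A link between the 2 genes was not tested. *Itga1*, the collagen-binding integrin α1 chain, had 677, 1582 and 1034 in WT and 506, 614 and 618 in CharmeKO (log2 fold change -0.84, SE 0.326, unadjusted p = 0.0388 in limma). These 2 and *Ddr2*, the fibrillar collagen receptor, were the 3 of 19 whose groups did not overlap, against the 4.11% given above, and *Ddr2* was named after its values had been seen. *Antxr2*, a receptor of collagen VI that mediates its uptake, had a log2 fold change of -0.35 (SE 0.222).

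For comparison, 0 of 7 fibrillar collagens passed the limma test, and their fitted values were positive for 3 and negative for 4 with a median of -0.22. *Col11a1*, a chain that nucleates thin fibrils, had the lowest p with 3472, 6384 and 8640 normalised reads in WT and 4347, 2614 and 2193 in CharmeKO (log2 fold change -0.98, SE 0.402, unadjusted p = 0.0471 in limma). *Col5a1* and *Col5a3*, chains of collagen V, had log2 fold changes of -0.49 and -0.28. The 3 positive values were those of the far more abundant *Col1a1* (0.16), *Col1a2* (0.25) and *Col3a1* (0.12), named after their values had been seen. Whether the fibrillar chains differed from the 8 genes in their response was not tested.

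The genes that followed each collagen most closely over the 6 libraries were looked up among 11583 genes with a mean of at least 100 normalised reads. These are descriptions over 6 libraries that share same-numbered pairs, and the best of so many genes will correlate highly by selection. *Col6a1* was followed by *Abca9* (Pearson r = 0.996), *Pdgfra* (0.996), the receptor that marks fibroblasts, and *Wdr4* (0.994). *Pdgfra* stood at 4110, 10084 and 4476 normalised reads in WT and 4767, 8466 and 7515 in CharmeKO. *Col6a2* was led by *Vsig10*, *Kiz* and *Aldh6a1* (0.994, 0.991 and 0.989). The pair itself had r = 0.966, which ranked *Col6a2* at 76 among the genes most like *Col6a1*.

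*Col6a3* had r = 0.300 with *Col6a1* and 0.147 with *Col6a2*, and its closest genes were *Tnik* (0.995), *Vash2* (0.988) and *Gfpt1* (0.983). *Tnik* stood at 99.5, 680 and 1253 normalised reads in WT and 117, 412 and 195 in CharmeKO. *Col8a1* was led by *Vps45*, *Btbd11* and *Bst2* (0.997, 0.996 and 0.995), and it was closer to *Col12a1* (0.792) than to any collagen VI chain. *Col12a1* was led by *Ccdc126*, *Abcc3* and *Septin3* (0.993, 0.992 and 0.990), and *Col14a1* by *Tmco1*, *Fam53b* and *Clpp* (0.994, 0.993 and 0.985). *Col8a2* was led by *Gm8186*, *Ints10* and *Fabp4* (0.986, 0.976 and 0.972). *Fabp4*, a fatty acid-binding protein of adipocytes and capillary endothelium, had 146, 211 and 107 normalised reads in WT and 179, 1415 and 1107 in CharmeKO, high in the same libraries as *Col8a2*. The nearly level *Col16a1* was led by *Eif1*, *Dhx8* and *Rpl30* (0.915, 0.903 and 0.897), the first and last of which are translation genes.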

How the data were processed

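Poly(A) RNA of 3 WT and 3 CharmeKO CF cultures was sequenced with a directional kit. The authors aligned reads with STAR, counted reverse-strand reads per gene on an Ensembl annotation with *Charme* added and normalised with DESeq2. The submitters' notes name GRCm39 and GRCh38. The deposited values are a read signal, counts divided by a size factor. Whole reads were recovered by dividing by the smallest positive value of each library (100% of 116676 values whole within 1e-06).

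The main test was limma 3.58.1 (mean-variance trend, genotype only) on log2(value + 1), a scale that understates changes of genes with few reads, over the 15948 of 19446 genes that reached 10 reads in 2 or more libraries, with Benjamini-Hochberg adjustment at 0.05. Alternatives were edgeR 4.0.16 (quasi-likelihood, TMM) and DESeq2 1.42.0 on recovered reads, each with and without the replicate number as a block, other scalings, pseudocounts and filters, and each library left out. Ratios within libraries used exact permutation tests, whose smallest p with 3 against 3 libraries is 0.1. All tests were two-sided, fits were tested on simulated data, and R 4.3.3, Python 3.11.15 and matplotlib 3.10.9 were used. P-values measure the spread between these cultures of pooled animals.

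Once group means were subtracted, libraries of equal number in the WT and CharmeKO groups correlated across genes with r = 0.762, 0.514 and 0.217, and libraries of unequal number with -0.643 to 0.222. The numbers, given in the sample titles, were taken to pair the libraries, from the data alone since the labels do not say what a number shares. Number 3 is the weak case. CharmeKO 3 was the closest CharmeKO library to WT 3 (0.217), but CharmeKO 3 was as close to WT 2 (0.222). The data therefore do not single out this pair, and its differences and the blocked fits rest on the number alone there. Coordinates and transcript lengths (longest APPRIS principal transcript) are from GENCODE M21 on GRCm38, matched by Ensembl ID. None of the 8 genes shares exons with another gene on its strand. Limits from read counts cover counting error only.

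The genes and lists were chosen with earlier results of these data known. Other named genes are up to 3 per list with the lowest limma p, the 3 most correlated with each collagen, the *Charme* entry, and markers that stand beside a result.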

Additional observations from a re-analysis of the deposited data

How the results depend on the processing

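None of the 8 collagen genes passed the adjusted threshold under any alternative, and the lowest adjusted p was 0.103, for *Col8a2* in DESeq2 with the block and without the pair numbered 1. The number of called genes in the whole table was 0 in limma under each scaling, pseudocount, filter, block and left-out library, and 0 in edgeR with and without the block. It was 8 in DESeq2, 64 in DESeq2 with the replicate block, and in that fit 144, 13 and 89 without pairs 1, 2 and 3 (range 13 to 144). In the fits with the block and one pair left out, the lists gave 0 to 2 calls for receptors and binding partners (*Postn* without pair 1, *Cspg4* and *Antxr1* without pair 3), 0 to 1 for fibrillar collagens (*Col11a1* without pair 1) and 0 to 1 for other collagen VI and FACIT chains (*Col6a5* without pair 2). *Postn* and *Antxr1* were named after their values had been seen. The replicate block alone, with all libraries, changed no call of the collagens or of these lists in limma, edgeR or DESeq2. The filter on a mean of 100 reads removed *Col8a2*.

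The direction of *Col12a1* changed to 0.24 in edgeR and 0.24 in DESeq2, and ranged from -0.68 to 0.97 with one library left out and from -1.19 to 0.98 with one pair left out. *Col6a1* ranged from -0.0100 to 0.97 and from -0.17 to 0.71, and *Col6a2* from -0.0526 to 0.88 and from -0.0639 to 0.67, in the same 2 sets of fits, and *Col16a1* from -0.0308 to 0.24 with one pair left out. The log2 ratio of *Col6a1* to *Col6a2* differed between genotypes by -0.14 to 0.19 with one library left out. The cause was not tested, and *Col6a3*, *Col8a1*, *Col8a2* and *Col14a1* kept their sign in every alternative that gave a value. *Col8a2* had 5 to 9 reads in 4 of the 6 libraries, which limits what can be said of its change.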
